A study of Homo sapiens with 36 samples.

Results

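LNCaP cells exposed to ribociclib at 2 µM for 72 h were compared with vehicle-treated LNCaP cells of the same time point, across all genes. LNCaP is an established human prostate cancer cell line that responds to androgens, and ribociclib is a small molecule that inhibits the kinases CDK4 and CDK6. The 3 ribociclib and 3 vehicle libraries were taken by their labelled agent, dose and time, and they are 6 of the 36 libraries of the series. The series holds 12 groups of 3 biological replicates, over several agents and doses and over exposures of 24 h and 72 h. AU2-94 and atirmociclib are selective CDK4 inhibitors, and their 2 µM groups at 72 h are used below for comparison, together with ribociclib 2 µM and vehicle at 24 h. The agents went onto the cells 24 h after seeding, and every group is the same parental line with no added allele. The vehicle groups carry a dose label of 2 µM as well, which names no agent beyond vehicle. Fewer cells were plated for the 72 h exposure than for the 24 h exposure, so time and starting density cannot be told apart in any comparison between the times.

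CDK4 and CDK6, bound to a D-type cyclin, phosphorylate the retinoblastoma protein RB and its relatives and so release the E2F transcription factors that drive entry into S phase. E2F targets encode the machinery of DNA replication, whereas genes of mitosis are switched on later in the cycle through FOXM1, B-MYB and a promoter element called the cell cycle genes homology region (CHR). In prostate cells androgens drive a separate programme of luminal genes, among them the one for prostate-specific antigen (KLK3).

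RNA was extracted in bulk from the cells of each well, so fewer cells of a kind and less RNA per cell cannot be told apart. Values are the authors' normalised counts, which compare 1 gene between libraries and, not being per length, do not rank genes against each other. The normalised counts of a library summed to 21549976 to 21903096 with ribociclib and 21436280 to 21617499 with vehicle, and the ranges of genes above 0 were 20232 to 20605 and 20906 to 21186. All 11 luminal prostate markers examined were at or above 10 normalised counts in the 6 libraries, and their summed level was 121525 to 124700 with vehicle and 183787 to 193143 with ribociclib. The immune markers did not exceed 2.80 in any of the 6 libraries and KRT5, CHGA, CDH5, PTPRC and CD3E were at 0. The fibroblast marker COL1A1 lay at 485 to 642 and the endothelial marker VWF at 184 to 448 over both groups. The other fibroblast markers COL1A2, COL3A1, DCN, LUM and PDGFRB did not exceed 24.9, and the endothelial marker PECAM1 did not exceed 0.931. What the COL1A1 and VWF readings come from was not tested. The basal marker KRT14 was 22.9, 25.2 and 4.73 with vehicle and 48.4, 49.00 and 59.2 with ribociclib. The basal markers TP63 and KRT15 did not exceed 0.608 and 2.41.

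The starts of 4 named genes are shown with the motif matches they hold. A higher gene was eligible only where a motif was found, so the match in PLOD2 was set by the choice. Each line gives the 250 bases before and the 50 bases after the RefSeq start (GRCh38.p14), 5′ to 3′ on the strand of the gene. Capitals mark the CHR (TTTGAA) in MKI67 and TOP2A, the E2F core (TTCCCGC) in QSER1 and the hypoxia-factor core (ACGTG) in PLOD2, each found on either strand. MKI67, which encodes the proliferation marker Ki-67, spans chr10:128126374-128126673 (minus strand), TOP2A, which encodes topoisomerase II alpha, spans chr17:40417847-40418146 (minus strand), QSER1 spans chr11:32892561-32892860 (plus strand), and PLOD2, which encodes a collagen lysyl hydroxylase, spans chr3:146161135-146161434 (minus strand).
MKI67: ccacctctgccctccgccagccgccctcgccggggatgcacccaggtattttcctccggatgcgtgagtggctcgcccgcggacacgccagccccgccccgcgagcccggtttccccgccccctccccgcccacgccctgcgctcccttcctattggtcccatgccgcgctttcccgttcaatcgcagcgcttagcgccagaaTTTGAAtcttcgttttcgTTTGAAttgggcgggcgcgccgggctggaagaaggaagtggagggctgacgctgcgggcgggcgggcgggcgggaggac
TOP2A: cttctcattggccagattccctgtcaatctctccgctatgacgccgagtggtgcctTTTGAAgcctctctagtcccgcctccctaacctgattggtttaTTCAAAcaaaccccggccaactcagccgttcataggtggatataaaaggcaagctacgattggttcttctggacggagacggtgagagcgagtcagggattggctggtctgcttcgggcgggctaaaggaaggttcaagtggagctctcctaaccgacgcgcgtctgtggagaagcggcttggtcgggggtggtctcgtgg
QSER1: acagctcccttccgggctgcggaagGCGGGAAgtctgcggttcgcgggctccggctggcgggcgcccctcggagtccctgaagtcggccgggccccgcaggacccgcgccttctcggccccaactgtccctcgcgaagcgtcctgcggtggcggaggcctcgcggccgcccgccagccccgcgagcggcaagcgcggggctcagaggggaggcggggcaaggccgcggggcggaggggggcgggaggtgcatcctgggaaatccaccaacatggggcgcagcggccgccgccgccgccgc
PLOD2: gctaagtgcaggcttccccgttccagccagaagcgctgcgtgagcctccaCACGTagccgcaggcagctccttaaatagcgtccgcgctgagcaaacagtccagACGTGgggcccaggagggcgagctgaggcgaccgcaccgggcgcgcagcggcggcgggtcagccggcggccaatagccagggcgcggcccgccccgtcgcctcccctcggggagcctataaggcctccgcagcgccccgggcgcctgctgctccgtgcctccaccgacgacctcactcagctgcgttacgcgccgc
The CHR matches of MKI67 begin at positions -47 and -29 from the start, close to it, and those of TOP2A at -194 and -151. The E2F core of QSER1 begins at -225, and the hypoxia-factor cores of PLOD2 at -200 and -146. The lower genes shown do not stand for all named lower genes. Windows of E2F1, E2F2, TK1, CCNA2 and CCNB1 held neither the CHR nor the E2F core. Among windows of the 12 steepest lower genes named, 2 of 9 held the E2F core and 0 of 9 the CHR.

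Over the 11639 tested genes with a RefSeq window of this length, 9.71% held the CHR, 10.1% the E2F core, 37.0% the letters CCAAT bound by NF-Y and 26.5% the hypoxia-factor core, which also lies within the E-box CACGTG. The CHR was in 69.0% of 58 windows of kinetochore and spindle genes and in 45.5% of 22 windows of mitotic entry genes. The E2F core was in 48.3% of 29 windows of homologous recombination and Fanconi genes, 40.7% of 27 windows of replication fork genes and 33.3% of 24 windows of licensing genes. CCAAT was in 84.0% of 50 histone windows and 82.8% of 29 windows of the ER stress and ATF4 list, and the hypoxia-factor core in 12 of 24 windows of hypoxia targets. Shares of the hypoxia-factor core in the other lists are not given here. Its share in hypoxia targets therefore does not show that the core is particular to that list. Among genes called lower with ribociclib, 15.3% of 183 windows held the E2F core and 19.1% the CHR, and among genes called higher 3.78% of 291 held the E2F core and 13.7% the CHR. These matches describe letters and do not show that a factor was bound.

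Ribociclib changed the transcriptome of LNCaP cells in both directions at 72 h. Of 16341 tested genes, 2525 were higher and 2518 lower at an adjusted p of 0.05 or less, which is 15.5% and 15.4% of those tested. With the further condition of a log2 fold change of at least 1 in size, 482 were called higher (2.95%) and 251 lower (1.54%). Differences were tested with limma on log2(normalised count + 1) over the 18 libraries of 72 h, which share 1 estimate of the spread, p-values were adjusted by Benjamini-Hochberg over all tested genes, and fold changes on this scale understate the change of low genes. All 3 ribociclib libraries lay above all 3 vehicle libraries in 467 of the 482 and below them in 245 of the 251, while 19.7% and 21.3% of all tested genes were separated in these directions. The median log2 fold change of all tested genes was -0.01, so that the changes below stand against a centre near 0. Of the genes called higher, 229 had a mean below 50 normalised counts in the group where they were higher and 141 a mean of 50 to 200. Of those called lower, by the same measure, 88 had a mean below 50, 50 a mean of 50 to 200 and 51 a mean of 1000 to 5000. The vehicle libraries did not exceed 3 normalised counts for 34 of the genes called higher, for which no fold is given here. Without 1 library at a time, 421 to 493 genes were called higher and 220 to 260 lower.

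**Figure D1:**
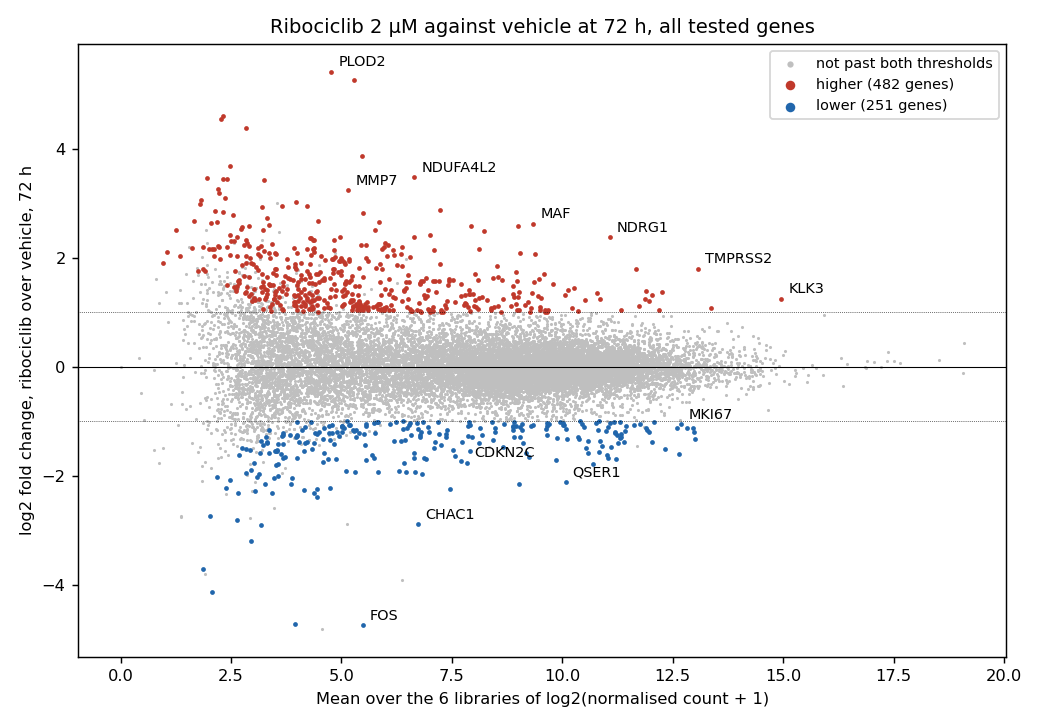
Log2 fold change of ribociclib over vehicle at 72 h for each of the 16341 tested genes (vertical axis) against the mean of log2(normalised count + 1) over the 6 libraries (horizontal axis). Red points are the 482 genes called higher and blue points the 251 called lower, and the dotted lines mark a log2 fold change of 1 and -1. Genes called in either direction are densest at low levels, and FOS lies at -4.75.

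The direct targets of ribociclib showed no fall in their own transcripts that passed the test. CDK4 gave 2265, 2590.0 and 2404 normalised counts with vehicle and 2220.4, 2238 and 2069 with ribociclib, a log2 fold change of -0.15 with a 95% interval of -0.29 to -0.02 (adjusted p = 0.0826). The libraries of the groups did not overlap, and without vehicle replicate 1 the test was passed at -0.20 (adjusted p = 0.0425 by limma). Of its exon bases, 44.25% overlap exons of TSPAN31 on the opposite strand, and the strand setting of the counting is not given in the sources used here. CDK6 was near the lower limit of measurement, at 14.8, 16.2 and 18.96 with vehicle and 19.1, 19.96 and 14.7 with ribociclib, with an interval of -0.73 to 0.92. CCND2, the gene for cyclin D2, did not reach 10 in any of the 6 libraries and was not tested.

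Cyclin D1 rose, whereas cyclin D3 fell. CCND1 was 7840.5, 8064 and 7657 with vehicle and 10327, 10628 and 11047 with ribociclib, a log2 fold change of 0.44 ± 0.05 (SE, adjusted p = 1.19e-06), and all ribociclib libraries lay above all vehicle libraries. CCND3 went from 954, 1008 and 1045 to 789.8, 815 and 745, with -0.35 ± 0.07 (SE, adjusted p = 0.00122). Among the RB family, the transcript of RBL1 (p107), itself an E2F target, fell from 687, 589 and 683 to 494, 434 and 396 (-0.57 ± 0.12 SE), and that of RBL2 (p130), which acts in resting cells, rose from 2032, 2252 and 2073 to 3014, 2573 and 2947 (0.42 ± 0.06 SE). The groups did not overlap for either relative. RB1 gave -0.22 (adjusted p = 0.0241 by limma) and did not pass the test without ribociclib replicate 2 (adjusted p = 0.109) or vehicle replicate 2 (0.113). Of the 7 tested members of this family, 2 rose and 3 fell at the adjusted p alone.

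The E2F factors that are themselves cell cycle targets were lower. Of 10 tested E2F and DP genes, 5 fell and 1 rose (2 without vehicle replicate 1), with a list median of -0.56. E2F1, an activator of S phase genes, went from 1000.4, 1124 and 953 to 589.5, 554 and 566 (-0.84 ± 0.07 SE, adjusted p = 7.26e-08). E2F2, another activator, went from 602, 537 and 494 to 287, 181 and 252, with a log2 fold change of -1.20 ± 0.16. In both, all ribociclib libraries were below all vehicle libraries. The repressors E2F7 (-1.47) and E2F8 (-1.4007) and the partner TFDP1 (-0.82) fell too, and E2F3 was the member that rose (0.19, adjusted p = 0.01, and 0.0556 in a fit of the 2 groups alone).

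Cyclin E2 and cyclin A2, partners of CDK2 at the start and through S phase, fell, as did CDK2 itself. CCNE2 was 632, 543 and 485 with vehicle and 299, 199 and 168 with ribociclib (-1.35 ± 0.20 SE, adjusted p = 4.11e-05), although 37.05% of its exon bases overlap INTS8 on the opposite strand. CCNA2 was 1458, 1539 and 1499 and 719, 726 and 709.8 (-1.06 ± 0.07 SE, adjusted p = 1.04e-09), with no overlap. CDK2 went from 1444, 1375 and 1582 to 939.8, 921 and 865 (-0.69) and CDC25A, a phosphatase that activates it, from 854, 856 and 1123 to 417, 440.0 and 476 (-1.07). These 4 are the members that fell of the 5 tested. The remaining member, CCNE1 (cyclin E1), was 397, 518 and 484 with vehicle and 475, 411 and 463 with ribociclib (-0.05, adjusted p = 0.786 by limma).

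**Figure D2:**
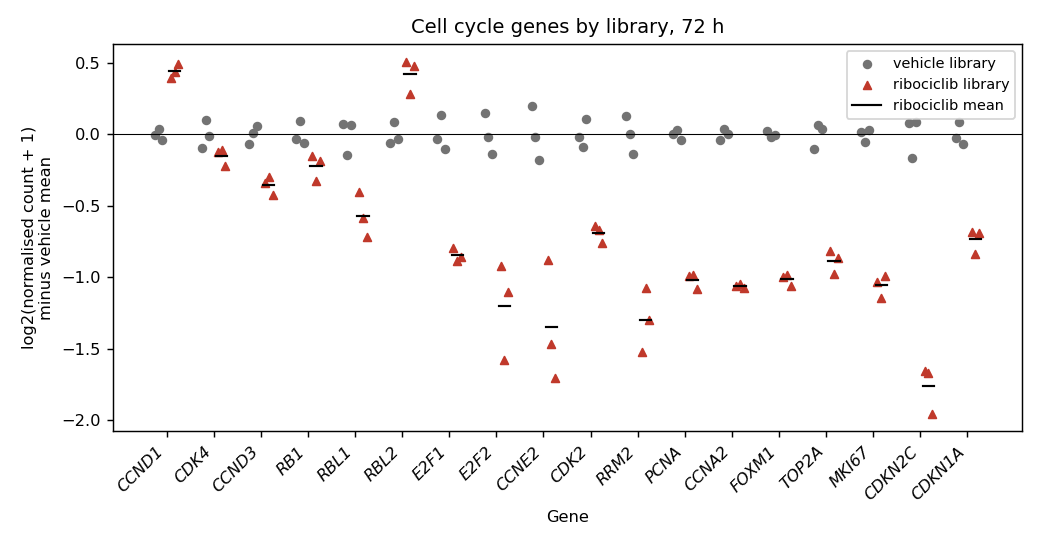
Cell cycle genes by library at 72 h, as log2(normalised count + 1) minus the mean of the 3 vehicle libraries. Grey circles are vehicle libraries, red triangles ribociclib libraries and black bars their means. CCND1 and RBL2 lie above 0 and CDK4 just under it, and the genes from E2F1 to CDKN1A lie below 0 in every ribociclib library.

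None of the CDK inhibitor genes passed the test in the higher direction. Of 7 tested, 4 fell. CDKN2C, which encodes the CDK4 and CDK6 inhibitor p18 and is an E2F target, went from 443, 373 and 446 to 133, 131 and 108 (-1.76 ± 0.13 SE, adjusted p = 1.1e-08), with means that differed 3.4-fold. CDKN2A, the gene of p16 and p14ARF, went from 557, 443 and 578 to 258, 224 and 241 (-1.12 ± 0.12). CDKN1A (p21) went from 2894, 3125 and 2810.0 to 1835, 1647 and 1824 (-0.73 ± 0.05), and CDKN1B (p27) gave -0.18 (adjusted p = 0.0273). CDKN1B did not pass the test without ribociclib replicate 1 (adjusted p = 0.0614) or replicate 3 (0.0690), or without vehicle replicate 2 (0.123) or replicate 3 (0.0604). Nor did it pass in a fit of the 2 groups alone (0.0791), all by limma. Without vehicle replicate 2, 1 member passed the test in the higher direction.

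Genes of DNA replication fell as a group. Of 29 tested genes of replication licensing and initiation, 20 fell and none rose, with a median of -0.51. CLSPN (claspin) went from 1431, 1527 and 1441 to 701, 729 and 731 (-1.02), CDT1 from 1243, 1348 and 1292 to 691, 612 and 673 (-0.97) and ORC1, the largest subunit of the origin recognition complex, from 587, 557 and 604 to 309, 302 and 317 (-0.91). The adjusted p of limma was at most 2.13e-06 for these 3 genes, and no ribociclib library reached a vehicle library. Of 33 tested genes of the fork and of chromatin assembly, 24 fell and 2 rose (PRIM2 and POLD4, 1 of them without ribociclib replicate 2), with a median of -0.54. PCNA, the sliding clamp, was 3316, 3373 and 3219.7 with vehicle and 1662, 1666 and 1559 with ribociclib (-1.02 ± 0.06 SE, adjusted p = 3.52e-10). CHAF1B, a subunit of chromatin assembly factor 1, gave a like value (-1.06 ± 0.09).

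Deoxynucleotide synthesis fell in 10 of its 12 tested genes and rose in none, with a median of -0.70. RRM2, the S phase subunit of ribonucleotide reductase, went from 4362, 3998 and 3624 to 1386, 1893 and 1620.1 (-1.30 ± 0.13 SE, adjusted p = 2.81e-07), and RRM1, its partner, gave -0.89. TYMS, thymidylate synthase, went from 1955, 2178 and 2052 to 929.7, 719.6 and 893 (-1.29 ± 0.09), and 39.94% of its exon bases overlap ENOSF1 on the opposite strand. TK1, thymidine kinase, went from 2416, 2471 and 2431 to 1574, 1439 and 1372 (-0.74 ± 0.06). Homologous recombination, Fanconi and checkpoint genes followed, with 23 of 33 lower and none higher, or 1 higher without ribociclib replicate 2 or vehicle replicate 3 (median -0.44). EXO1, an exonuclease of end resection, gave -1.04, and BLM, a helicase, gave -1.01.

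Replication-dependent histone genes had the lowest median of the lists with at least 20 tested members. Of 55 tested, 47 fell and none rose, and 38 of the 47 passed the log2 fold change of 1 as well, with a median of -1.22 against -0.01 for all genes. H3C4 was 2809.7, 3347 and 3169 with vehicle and 986, 767 and 964 with ribociclib (-1.78 ± 0.09 SE, adjusted p = 2.41e-11), means that differed 3.43-fold. H1-6, a linker histone gene, gave -2.22 at low counts (66.3, 47.9 and 57.00 against 6.78, 14.03 and 14.99), and H3C12 gave -1.93, although 40.33% of its exon bases are shared with H2AC17 on the same strand. Histone genes are near copies of each other, so reads could be split among them and a single gene is less certain than the list.

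Genes of the mitotic apparatus fell in most members. Of 66 tested kinetochore, spindle and cytokinesis genes, 58 fell and 2 rose (DEPDC1 and CENPN), with a median of -0.69. Against the mean of the vehicle libraries, the median was -0.70 to -0.68 over the 3 ribociclib libraries. The list median was -0.65 without ribociclib replicate 2 or replicate 3, and -0.66 without vehicle replicate 2 or after quantile normalisation. MKI67, whose promoter is printed above, went from 9672, 9199 and 9766 to 4663, 4319 and 4795 (-1.06 ± 0.06 SE, adjusted p = 9.01e-11). TOP2A went from 3293, 3710.2 and 3639 to 2015, 1801 and 1943 (-0.89 ± 0.08 SE, adjusted p = 1e-07). No ribociclib library overlapped a vehicle library for either gene. CDCA3 and SKA3, a regulator of mitotic entry and a kinetochore protein, gave -1.09 and -1.09, and the motor KIF15 gave -1.10.

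Of 28 tested mitotic entry kinases and FOXM1-programme genes, 19 fell and none rose (median -0.54). FOXM1 went from 3664, 3559.9 and 3608 to 1809.5, 1828 and 1734 (-1.01 ± 0.05 SE, adjusted p = 6.13e-11), and 15.9% of its exon bases overlap ITFG2 on the opposite strand. MYBL2, which encodes B-MYB, went from 2995, 3114 and 3092 to 1400.2, 1370.0 and 1311 (-1.17 ± 0.06), and CCNB1, cyclin B1, from 2752, 2981 and 2750.4 to 1876, 1934 and 1880.5 (-0.57 ± 0.06). FOXM1, MYBL2 and CCNB1 were below vehicle in every ribociclib library. Of 20 tested regulators of the APC/C and SCF ubiquitin ligases, 8 fell and none rose. The APC/C inhibitor FBXO5 (EMI1) gave -1.10 and securin, PTTG1, gave -0.93. Among 10 writers and erasers of DNA methylation, UHRF1 (-1.0003) and DNMT1 (-0.52), which maintain methylation at replication, fell. TET2 (-0.33, named after its value was seen) fell and DNMT3A rose (0.57). DNMT3A did not pass the test without ribociclib replicate 3 (0.37, adjusted p = 0.0595 by limma).

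p53 targets and the BCL2 family moved in both directions. Of 30 tested p53 targets, 13 fell and 6 rose. PMAIP1, which encodes the pro-apoptotic protein NOXA, went from 269, 267 and 221 to 88.5, 90.97 and 96.5 (-1.44 ± 0.16 SE, adjusted p = 9.74e-07), and DDB2, of nucleotide excision repair, gave -1.01. BCL2, the anti-apoptotic founder of its family, went from 165, 158 and 179 to 71.5, 68.6 and 77.1 (-1.20 ± 0.33 SE, adjusted p = 0.00954), and the pro-apoptotic BOK rose from 228, 270.4 and 232 to 460.5, 428 and 448 (0.87). Of 26 genes written for senescence and secreted factors 9 were tested, 5 of which fell and 2 rose. HMGB2, a chromatin protein lost in arrested cells, went from 2994, 3144 and 3085 to 1466, 1437 and 1389 (-1.10) and IGFBP3 from 207, 259 and 203 to 88.02, 89.3 and 77.8 (-1.37). The other members written for this list were not tested.

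The androgen programme rose. Of 65 tested androgen response genes, 43 rose and 4 fell, and 15 were called higher with a log2 fold change of at least 1 and none lower, with a list median of 0.43. KLK3 was 20972, 20799 and 19802 with vehicle and 47194, 48315 and 51463 with ribociclib, 2.39 times the vehicle mean (1.25 ± 0.05 SE, adjusted p = 7.65e-13). TMPRSS2, a serine protease gene induced by androgens, went from 5129, 4504 and 4205 to 15663, 14764 and 17923 (1.80 ± 0.07 SE, adjusted p = 1.21e-12). KLK2 went from 2431, 2343 and 2239 to 6376, 5537 and 6652 (1.4005 ± 0.07). In all 3 the lowest ribociclib library was more than the highest vehicle library.

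Among prostate lineage factors, ETV1 rose (0.43), whereas FOXA1, a pioneer factor named after its value was seen, fell (-0.17). MAF, a transcription factor gene, gave the steepest change of the androgen response genes named here, from 295, 268 and 221 to 1529, 1713 and 1587 (2.63 ± 0.09), followed by NDRG1 from 798, 1038 and 1010.0 to 4577, 5141 and 5055 (2.38 ± 0.10), which is a member of the hypoxia list as well. The anchoring protein gene AKAP12 went from 48.1, 31.98 and 50.8 to 241, 158 and 309.6 (2.38).

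The UGT2B enzymes, which conjugate androgens to glucuronic acid for removal, went the other way in all 5 members tested. UGT2B15 went from 2886, 3308 and 3168 to 1173, 919 and 1069 (-1.57 ± 0.08 SE, adjusted p = 3.8e-11) and UGT2B17 from 3669, 4133 and 4070.2 to 1595, 1377 and 1549 (-1.39 ± 0.06 SE, adjusted p = 7.96e-12). UGT2B11 was 1078, 1172 and 1041 with vehicle and 245, 250.05 and 245 with ribociclib, with means that differed 4.45-fold. UGT2B28 (-1.67) and UGT2B10 (-1.59) were lower by similar steps. The family shares near-identical stretches (UGT2B15 and UGT2B17 are 99.274% identical over 551 bases), so the values of single members are uncertain.

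Surface proteins used as drug targets in prostate cancer rose in 10 of 14 tested genes and fell in none. TMEFF2 went from 3050.2, 3098 and 3050.4 to 8336, 7404 and 8085 (1.37 ± 0.04 SE, adjusted p = 2.23e-13), and CD24 from 26.8, 29.7 and 30.4 to 50.5, 40.4 and 111, a call that rested on ribociclib replicate 3 (without it 0.63, adjusted p = 0.0789 by limma). ERBB2, named after its value was seen, rose as well (0.52). IGF1R, the receptor of insulin-like growth factor 1, went from 1802, 1623 and 1989.8 to 3607, 4122 and 3465 (1.05 ± 0.11 SE, adjusted p = 9.03e-07) as the steepest of 8 growth factor receptor and PI3K genes that rose, against 1 that fell (AKT1, -0.17) of 28 tested. No member of that list was lower without ribociclib replicate 2, vehicle replicate 2 or vehicle replicate 3. Of 20 neuroendocrine and plasticity genes 9 passed the filter on low values, 1 higher (TWIST1, 48.3, 52.2 and 49.2 to 152, 155 and 142) and 1 lower, the methyltransferase gene EZH2 (-0.92), which is an E2F target.

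**Figure D3:**
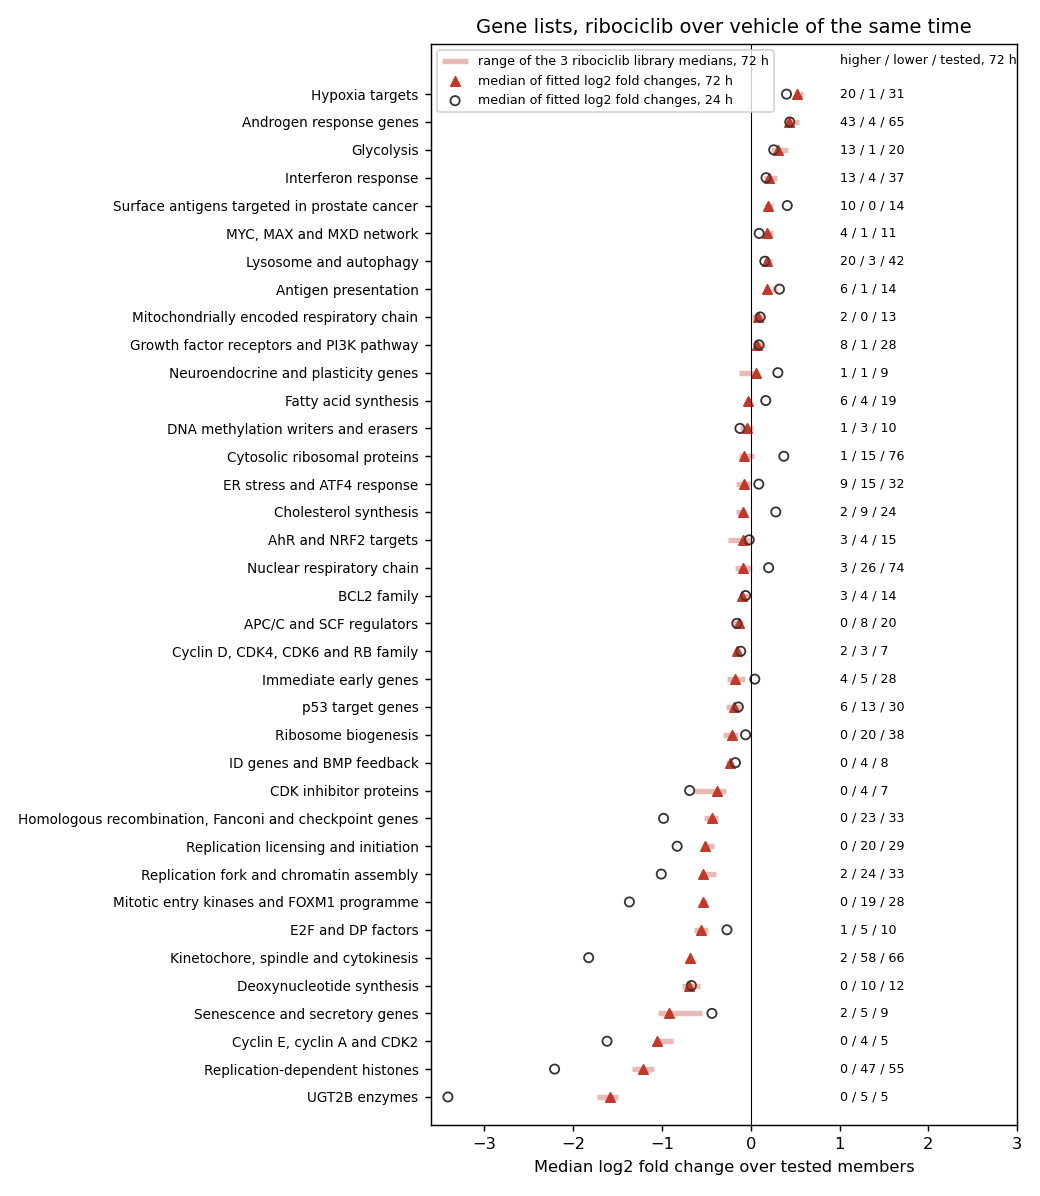
Median log2 fold change of ribociclib over vehicle for gene lists (horizontal axis), at 72 h (red triangles, with a bar for the range of the 3 ribociclib library medians) and at 24 h (open circles). Numbers at the right are the members higher, lower and tested at 72 h at an adjusted p of 0.05. Hypoxia targets and androgen response genes have the highest medians at 72 h, cell cycle lists and UGT2B enzymes the lowest, and most cell cycle lists lie further left at 24 h.

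Targets of the hypoxia-inducible factors rose, although the labels name no hypoxia treatment. Of 31 tested, 20 rose and 1 fell (STC2), with a median of 0.52, and 10 were called higher. PLOD2, with the 2 printed ACGTG matches, was 2.08, 4.28 and 3.52 with vehicle and 169, 104 and 323 with ribociclib (5.42 ± 0.33 SE, adjusted p = 6.94e-10), the largest fold change among the genes named at a mean of at least 50. NDUFA4L2, a mitochondrial subunit gene induced by low oxygen, went from 34.9, 26.98 and 25.9 to 356, 168 and 632 (3.49 ± 0.36), and PPFIA4 from 78.96, 23.4 and 85.8 to 373, 323 and 568 (2.89). Ribociclib replicate 2 was the lowest ribociclib library for all 3 of these genes, yet above the vehicle libraries.

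Glycolysis rose with them in 13 of 20 tested genes, against 1 that fell (LDHB). LDHA, lactate dehydrogenase A, went from 13593, 13671 and 12861 to 20957, 21876 and 23958 (0.73 ± 0.08 SE, adjusted p = 6.71e-07), and ALDOC, an aldolase, from 674, 667 and 713 to 1796, 1608 and 2093 (1.41 ± 0.10). PGK1, phosphoglycerate kinase, went from 4988, 5999.8 and 5670.3 to 8732, 7336 and 10257 (0.65). For each of the 3 genes the groups did not overlap. Of 74 nuclear-encoded subunits of the respiratory chain, 26 fell and 3 rose, by small steps (median -0.09, steepest NDUFA6 at -0.43), and without ribociclib replicate 3 the count lower was 16 and the count higher 5, against 1 higher without ribociclib replicate 2.

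Of 32 tested genes of the ER stress and ATF4 response, 15 fell and 9 rose. CHAC1, an ATF4 target that degrades glutathione, was 304, 278 and 285 with vehicle and 60.4, 19.4 and 46.8 with ribociclib (-2.89 ± 0.27 SE, adjusted p = 1.85e-07). SLC7A11, the cystine transporter, went from 4112, 4354 and 4411 to 1446, 1205 and 1335 (-1.69 ± 0.08 SE, adjusted p = 2.23e-11), and SLC7A5, a carrier of large neutral amino acids, from 1015, 1072 and 1148 to 343, 353 and 334 (-1.65). These 3 genes were separated in every library.

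The other members called lower, named after their values were seen, make serine and asparagine. ASNS, asparagine synthetase, went from 2609.6, 2495 and 2379.5 to 841, 985 and 836 (-1.49), PSAT1 from 4235, 4511 and 4355 to 1679, 1646 and 1708 (-1.38) and PHGDH, the first enzyme of serine synthesis, from 5526, 5931 and 6025 to 2385, 2703 and 2736 (-1.16). ATF4 itself went from 7054, 6841 and 6525 to 3849, 3554 and 3717 (-0.88 ± 0.05 SE, adjusted p = 5.7e-10). SLC1A4, a neutral amino acid transporter outside the list, gave -1.94. The 9 that rose include, also named after their values were seen, HSPA5 (0.37), HSP90B1 (0.52) and CALR (0.37), chaperones of the endoplasmic reticulum.

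Of 38 tested ribosome biogenesis genes, 20 fell and none rose (median -0.22). UTP20 went from 2285, 2448 and 2355 to 1519, 1460.0 and 1404 (-0.69 ± 0.07 SE, adjusted p = 1.86e-07) and FBL, fibrillarin, from 3961, 4015 and 4156 to 2912, 2757 and 2714 (-0.53). Of 76 cytosolic ribosomal protein genes, 15 fell and 1 rose, a share near the 15.4% of all tested genes that fell, with a median of -0.07 and medians of -0.14 to 0.04 over the ribociclib libraries. The count that fell was 34 without ribociclib replicate 2, 23 with libraries scaled to equal totals and 8 in a fit of the 2 groups alone. MYC, by contrast, rose from 8204, 8299 and 8758 to 9864, 11181 and 10731 (0.33 ± 0.05 SE, adjusted p = 3.32e-05), and of its network partners MXD1 (0.72) and MXD4 (0.66) rose while MXD3 fell (-1.02).

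**Figure D4:**
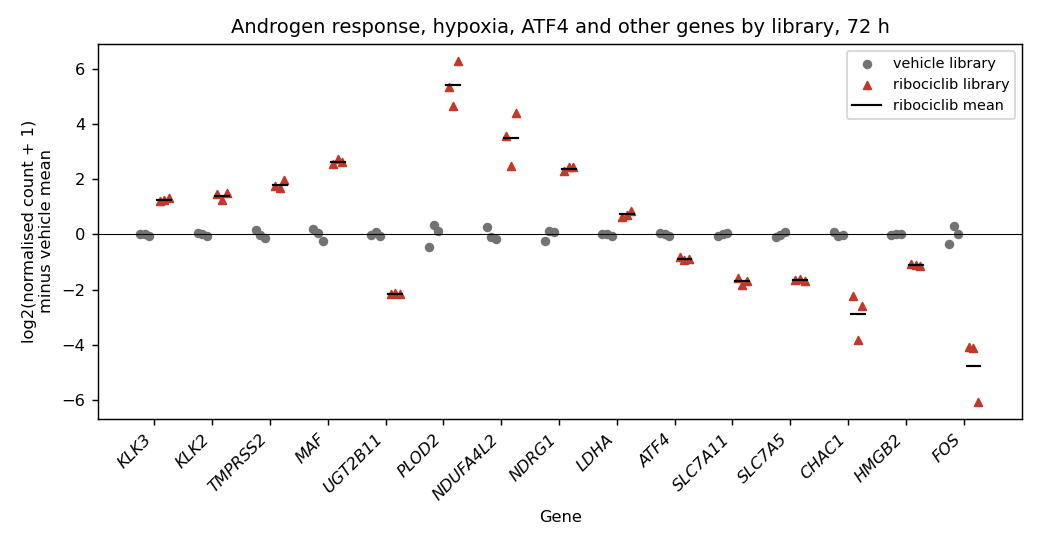
Genes of the androgen response, the hypoxia list, the ATF4 response and others by library at 72 h, as log2(normalised count + 1) minus the mean of the 3 vehicle libraries. Grey circles are vehicle libraries, red triangles ribociclib libraries and black bars their means. KLK3, KLK2, TMPRSS2, MAF, PLOD2, NDUFA4L2 and NDRG1 lie above 1 on average and UGT2B11, SLC7A11, SLC7A5, CHAC1, HMGB2 and FOS below -1, with the widest spread in PLOD2, NDUFA4L2, CHAC1 and FOS.

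FOS, an immediate early gene, gave the steepest fall of the named genes, from 182, 289 and 235 to 12.7, 12.5 and 2.48 (-4.75 ± 0.50 SE, adjusted p = 7.24e-07). Of 28 tested immediate early genes, 5 fell and 4 rose, near the shares of all tested genes (15.4% lower and 15.5% higher). FOSL2, a relative of FOS, rose from 418, 476 and 391 to 890.1, 906 and 929.5 (1.09 ± 0.08). ID1, a target of BMP signalling, went from 504, 540.1 and 529.5 to 226, 393 and 207 (-0.99 ± 0.30 SE, adjusted p = 0.0164). ID3 went from 777, 798 and 811 to 406, 623 and 427 (-0.74) and ID2 from 232, 278 and 204 to 107, 193 and 124 (-0.78). Of the other tested genes in the list of ID genes and BMP feedback, SMAD9 fell (-0.39, adjusted p = 0.0155 by limma). SMAD6 (-0.07), SMAD7 (0.10), BAMBI (0.02) and BMP6 (0.10) did not pass the test. Ribociclib replicate 2 stood above the other ribociclib libraries for all 3 ID genes. ID1 did not pass the test without ribociclib replicate 1 (adjusted p = 0.0625) or replicate 3 (0.0792). ID2 did not pass it without ribociclib replicate 1 (0.0682) or vehicle replicate 2 (0.0603), all by limma.

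Among other lists, interferon response genes rose in 13 of 37 and fell in 4, with IFITM2 from 146, 119.7 and 182 to 279.7, 376 and 346 (1.17) and OAS3 from 620.0, 678 and 600.2 to 318, 371 and 297 (-0.95). The count higher was 7 without ribociclib replicate 2 and 8 without vehicle replicate 2 or vehicle replicate 3, and the count lower was 1 without vehicle replicate 1 and 2 without ribociclib replicate 1 or replicate 2. Of 14 antigen presentation genes 6 rose and 1, the peptide transporter gene TAP2 (-0.71), fell. Lysosome and autophagy genes rose in 20 of 42 and fell in 3, with GABARAPL1, an autophagosome protein, from 548, 535 and 511 to 878, 1029.9 and 983 (0.86 ± 0.09 SE, adjusted p = 7.11e-07). In lipid synthesis, ELOVL5, a fatty acid elongase and androgen target, went from 7585, 7281 and 6857 to 15115, 15873 and 15148 (1.09), whereas the desaturase FADS1 went from 3284, 3054 and 3224 to 1730.3, 1669 and 1799.6 (-0.88). Cholesterol synthesis genes fell in 9 of 24 and rose in 2. NQO1, a target of NRF2, went from 1976, 2191 and 1840.2 to 979, 1053 and 868 (-1.05).

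Outside the lists, the steepest rises at a mean of at least 50 with no overlap between the groups were in OR51E1, ANGPT2, MMP7, RGS2, RGS11, RLN1, RIPOR2 and MBNL2. OR51E1, an olfactory receptor gene known from prostate, was 4.79, 6.75 and 4.58 with vehicle and 244, 182 and 319 with ribociclib (5.27 ± 0.21 SE, adjusted p = 1.6e-12). ANGPT2, angiopoietin 2, went from 10.7, 7.54 and 14.7 to 206, 86.7 and 272 (3.88) and MMP7, matrilysin, from 10.6, 11.2 and 9.93 to 98.6, 81.6 and 157 (3.24). Each of these 3 genes was at or below 14.7 in every vehicle library. RLN1, the gene of a relaxin, went from 105, 94.9 and 97.3 to 572, 641 and 589 (2.59 ± 0.09 SE, adjusted p = 2.27e-13), and RIPOR2 from 200.1, 198 and 225 to 1334, 1083 and 1335 (2.58). RGS2 and RGS11, which quench G protein signals, gave 2.96 and 2.69, and 20.7% of the exon bases of RGS11 overlap FAM234A on the opposite strand.

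Outside the lists, the steepest falls at a mean of at least 50 with no overlap between the groups were in TTPA, QSER1, DHRS2, SLC1A4, CBR3, SLC2A13 and NAB1. QSER1, whose promoter is printed above, went from 2040.0, 2184 and 2517 to 633, 542 and 404 (-2.11 ± 0.16 SE, adjusted p = 9.97e-09). DHRS2, a dehydrogenase, went from 224, 243 and 206 to 55.7, 61.3 and 52.1 (-1.97) and TTPA, a vitamin E carrier, from 88.7, 42.7 and 30.6 to 7.37, 8.66 and 9.81 (-2.38). NAB1, a repressor of early growth response factors, went from 67.7, 68.1 and 61.00 to 16.04, 13.2 and 21.7 (-1.91), and CBR3 gave -1.94, although 71.14% of its exon bases overlap CBR3-AS1 on the opposite strand. The vehicle values of TTPA spread more than those of the others.

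The cell cycle step was smaller at 72 h than at 24 h. The effect of ribociclib at 72 h minus its effect at 24 h, each against its own vehicle libraries and fitted as an interaction in limma over all 36 libraries, was called higher for 596 genes (3.54% of 16850) and lower for 85 (0.504%). For MKI67, vehicle was 9181, 9371 and 8954 and ribociclib 1368, 1246 and 1321 at 24 h, a log2 fold change of -2.81 that became -1.06 at 72 h, a difference of 1.75 ± 0.10 (SE, adjusted p = 3.77e-13). CCNA2 (1.67), TOP2A (1.54), RRM2 (1.76) and CDCA3 (1.81) shifted alike. At an adjusted p alone, where 10.5% of all genes shifted up and 9.66% down, 55 of 66 kinetochore genes, 36 of 56 histone genes, 19 of 28 mitotic entry genes and 18 of 29 licensing genes shifted up, and 1 licensing gene and none of the other 3 lists shifted down. For E2F1 the difference was 0.25 with an interval of 0.03 to 0.47 (adjusted p = 0.104).

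Other programmes moved further from vehicle with time or turned. KLK3 had a log2 fold change of 0.34 at 24 h, from 23132, 24802 and 22731 to 29962, 28771 and 30541 (difference 0.92 ± 0.07 (SE, adjusted p = 1.66e-10)). MMP7 was 35.4, 33.5 and 44.6 with vehicle and 39.3, 32.1 and 46.8 with ribociclib at 24 h, a log2 fold change of 0.05 (adjusted p = 0.934) beside 3.24 at 72 h. FOS was 24.1, 7.02 and 15.1 and 62.4, 13.96 and 35.1 at 24 h, ribociclib libraries overlapping vehicle libraries, and the difference between the times was -5.88 ± 1.00 (SE, adjusted p = 5.63e-05). Ribosomal protein genes were higher than vehicle in 76 of 76 at 24 h, where 16.8% of all genes were higher and 15.2% lower at an adjusted p alone, and the effect shifted down in 68 of 76 by 72 h. CHAC1 fell at both times and further at 72 h (-1.19 and -2.89), and the fall of UGT2B28 eased from -4.76 to -1.67. OPRK1 and FRMD3 stood above vehicle at 24 h (1.26 and 1.69) and shifted down by 2.14 and 2.17, and MYO15A shifted up (3.43).

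At 24 h, 1.39% of 16137 tested genes were called higher and 3.66% lower. Of the 482 genes called higher at 72 h, 78 were also called higher at 24 h (16.2% of the 72 h list and 34.7% of the 24 h list) and 4 called lower. Of the 251 called lower at 72 h, 140 were called lower at 24 h (55.8% and 23.7%) and none higher. These comparisons use separate control libraries. Since seeding density differed with time, the part of density in them cannot be told apart.

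Ribociclib and AU2-94 at 2 µM for 72 h differed in few genes. Ribociclib was called higher for 12 genes (0.0734% of 16341) and lower for 22 (0.135%) in limma, as 1 of 2 pairs of compounds compared, each adjusted over all genes. CYP1A1, a detoxifying enzyme induced by the aryl hydrocarbon receptor, was at 226, 119.8 and 169 with AU2-94 and 14.8, 31.2 and 22.1 with ribociclib (-2.88 ± 0.37 SE, adjusted p = 0.000327), beside 6.24, 13.2 and 9.7 with vehicle. KLF5, an epithelial transcription factor, was 44.2, 45.6 and 52.2 with AU2-94 and 95.9, 98.4 and 115 with ribociclib (1.11 ± 0.16 SE, adjusted p = 0.000916), both under the vehicle values of 159, 162 and 162. ID1 was 116.3, 56.3 and 88.9 with AU2-94, below each of the ribociclib libraries (1.65, adjusted p = 0.00506), and ID3 differed likewise (1.09). CHAC1 was lower with ribociclib than with AU2-94, at 114, 129.6 and 109.9 (-1.60). TTN, the gene of the giant protein titin, was 229, 142 and 151 with AU2-94 and a widely spread 304, 828 and 1416 with ribociclib, and its call was lost without ribociclib replicate 2 (adjusted p = 0.101), ribociclib replicate 3 (0.0963), AU2-94 replicate 2 (0.0949) or AU2-94 replicate 3 (0.0905).

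The counts against AU2-94 rested on single libraries. Genes higher with ribociclib were 7 without ribociclib replicate 2, 5 without ribociclib replicate 3, 3 without AU2-94 replicate 2 and 7 without AU2-94 replicate 3, and genes lower were 9 without AU2-94 replicate 2 or replicate 3. With quantile normalisation 43.8% of the called genes were lower in place of 64.7%, and a fit of the 2 groups alone called 5 in each direction. MYOD1 and CYP1A2 were lower with ribociclib than with AU2-94 at low counts (32.2, 8.07 and 48.1 for MYOD1, against 96.5, 165 and 190.3), and MYOD1 was listed at 0 in the 3 vehicle libraries. The call of MYOD1 was lost in a fit of the 2 groups alone (adjusted p = 0.0745 by limma) and in a fit of all 36 libraries (0.188). Against AU2-94 the difference was -0.39 for MKI67 (interval -0.51 to -0.28, adjusted p = 0.00066) and -0.25 for FOXM1 (-0.36 to -0.14, adjusted p = 0.013). It did not pass the test for CCNB1 (-0.04, interval -0.17 to 0.09, adjusted p = 0.807) or for E2F1, at -0.24 (-0.39 to -0.08, adjusted p = 0.0902). For KLK3 it was 0.12 (0.02 to 0.21) and for CCND1 0.11 (0.01 to 0.21), neither past the test. At an adjusted p alone, 1.96% of all genes were higher and 1.38% lower with ribociclib. By the same measure, 27 of 65 androgen response genes, 12 of 32 genes of the ATF4 list and 15 of 66 kinetochore genes differed between these compounds. The list counts pool both directions, so they do not show which compound gave the higher levels.

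Against atirmociclib at 2 µM, ribociclib left the cell cycle genes at higher levels. In limma, ribociclib was called higher for 104 genes (0.636%) and lower for 34 (0.208%). At an adjusted p alone, where 4.35% of all genes were higher with ribociclib and 4.83% lower, 53 of 66 kinetochore genes, 44 of 55 histone genes and 18 of 28 mitotic entry genes were higher with ribociclib and none lower. CCNA2 was 315, 314 and 338 with atirmociclib and 719, 726 and 709.8 with ribociclib (1.15 ± 0.07 SE, adjusted p = 1.79e-09), and MKI67 was 2372, 2231 and 2626 with atirmociclib (0.93). DHRS2 was 13.5, 15.9 and 27.7 with atirmociclib (1.58), and RAB31, a small GTPase, was 45.2, 34.6 and 54.7 against 188, 219.6 and 168 with ribociclib (2.09 ± 0.28). DIO3, which inactivates thyroid hormone, was 107, 107 and 125 with atirmociclib and 37.1, 18.4 and 31.99 with ribociclib (-1.97). Of hypoxia targets no member differed between these compounds at an adjusted p, and for KLK3 the difference was -0.08 with an interval of -0.17 to 0.02.

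**Figure D5:**
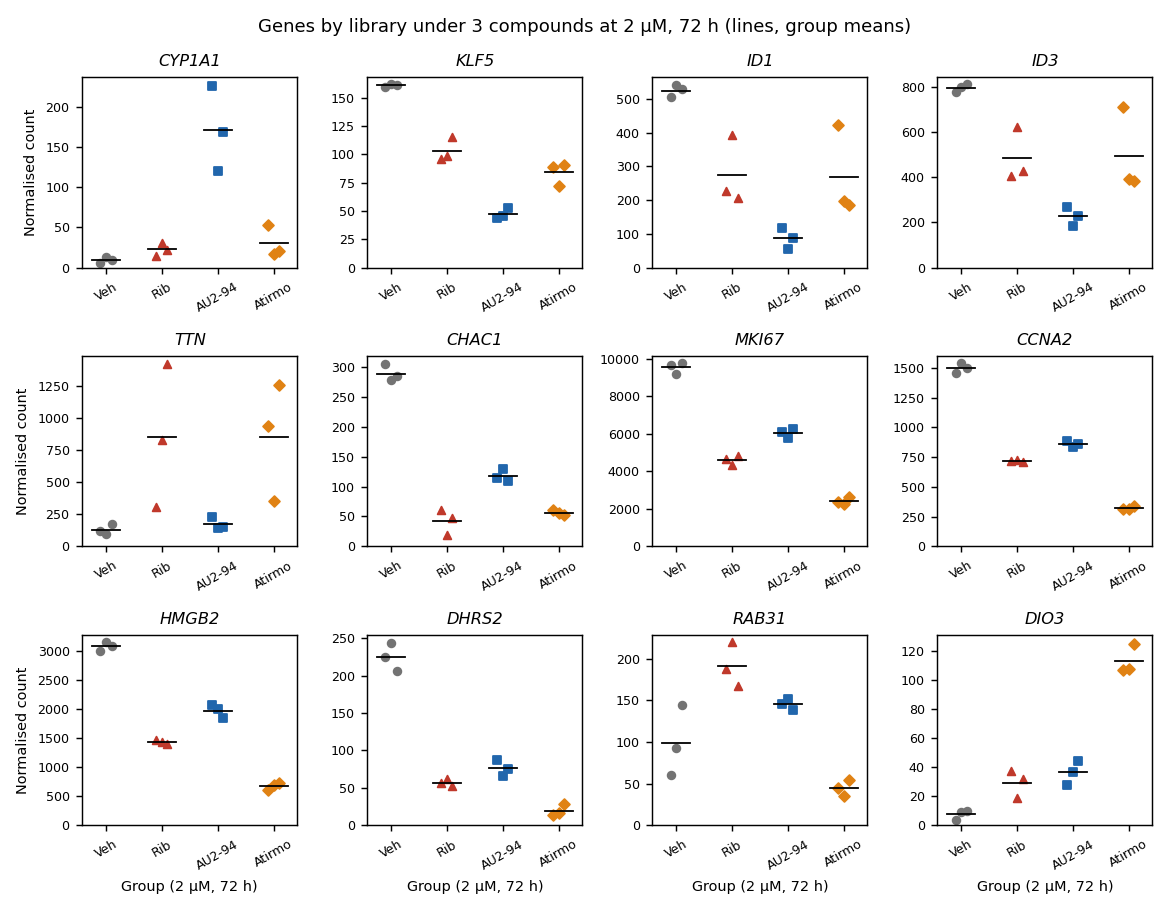
Normalised counts of 12 genes by library at 72 h (vertical axes, each from 0) with vehicle (grey circles), ribociclib 2 µM (red triangles), AU2-94 2 µM (blue squares) and atirmociclib 2 µM (orange diamonds), with lines at the group means. CYP1A1 stands high with AU2-94 alone, ID1, ID3 and KLF5 are lowest with AU2-94, and MKI67, CCNA2 and HMGB2 are lowest with atirmociclib and lie between those of AU2-94 and atirmociclib with ribociclib.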

How the data were processed

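Total RNA of LNCaP cells was extracted with TRIzol, and libraries were prepared with a total RNA kit and sequenced on an MGI instrument. The authors deposited normalised counts per gene (a signal on the scale of reads, not whole numbers) for all 36 libraries. Per the submitters' notes and the methods of the study, reads were aligned with STAR 2.6.1d to GRCh38 in the nf-core/rnaseq pipeline and DESeq2 was used; the counter and strand setting are not given in the sources used here. Low values were whole multiples of a step in only 1.38% to 26.44% of cases per library (within 0.002 of a step), so whole reads were not recovered and the depth is unknown, and no counting interval is given.

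The tests used log2(value + 1) of genes that reached 10 in 3 or more fitted libraries, with limma 3.58.1 in R 4.3.3, two-sided, with Benjamini-Hochberg adjustment and a mean-variance trend. Genes were called at an adjusted p not above 0.05 together with a log2 fold change of 1 or more in either direction. On simulated data of the main comparison (15761 genes, 200 planted changes), 99.5% of the planted changes were called. The planted log2 changes were -2, -1.5, 1.5 and 2, in genes with a vehicle mean of at least 50, and all genes shared a common dispersion. The simulation therefore does not cover log2 changes near 1, genes of lower level or genes with a wider spread. Labels give the replicate number as a batch, by which the libraries could be paired. Deviations of same-numbered ribociclib and vehicle libraries had correlations of -0.03, -0.04 and 0.01.

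Members and lists were chosen with earlier results of these data known. Genes named are a fixed set of cell cycle and androgen genes, the 12 steepest called genes in each direction at a mean of at least 50 without overlap, the 3 steepest members of each list with further members of short counts, and the 4 steepest in each direction of the other comparisons, with additions stated in the text or added after values were seen (ASNS, PSAT1, PHGDH, ATF4, KRT14). Alternatives were the pseudocount, the filter, the scaling, the trend, the libraries fitted, the replicate block and leaving out each library. Promoter windows and gene positions are from RefSeq (GRCh38.p14). Values of a few genes are not reported here.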

Additional observations from a re-analysis of the deposited data

Results flagged for a closer look

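The effect of ribociclib differed between 72 h and 24 h, by the interaction in limma, in 596 genes in the higher and 85 in the lower direction, and time and seeding density cannot be told apart in it. Each value that follows is the log2 effect at 72 h minus that at 24 h. Among cell cycle genes it was 1.01 for KIF15, 1.06 for TK1, 1.16 for PTTG1, 1.19 for E2F7, 1.23 for E2F2, 1.31 for EXO1, 1.36 for TYMS, 1.36 for MYBL2 and 1.42 for E2F8. It was 1.54 for TOP2A, 1.58 for HMGB2, 1.65 for CLSPN, 1.67 for CCNA2, 1.75 for MKI67, 1.76 for RRM2, 1.81 for CDCA3 and 1.85 for H3C12. For the UGT2B enzymes it was 1.59 for UGT2B15, 2.07 for UGT2B10, 2.08 for UGT2B11 and 3.09 for UGT2B28.

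Other genes with a higher effect at 72 h were CD24 (1.30), MXD3 (1.33), RGS11 (1.53), RIPOR2 (1.54), RGS2 (2.12), OR51E1 (2.15), ANGPT2 (2.50), DIO3 (2.86), MMP7 (3.19) and MYO15A (3.43). A lower effect at 72 h was found for FOS (-5.88), FRMD3 (-2.17), OPRK1 (-2.14), CHAC1 (-1.69), IGFBP3 (-1.44) and ID1 (-1.37). CYP1A2, whose vehicle libraries at 72 h held 1.92, 0 and 0, had a fitted difference of 2.10 that depends on the pseudocount and fell to 0.60 (adjusted p = 0.204 by limma) with a pseudocount of 8. The test was lost for CYP1A2 without ribociclib 72 h replicate 1 or 3, vehicle 72 h replicate 2 or 3, ribociclib 24 h replicate 3 or vehicle 24 h replicate 3 (1.46 to 2.06). It was lost for E2F7 without ribociclib 72 h replicate 1 or 3, vehicle 72 h replicate 2 or 3, or replicate 1 or 2 of either group at 24 h (0.98 to 1.24), and for CD24 without ribociclib 72 h replicate 3 (0.87, adjusted p = 0.068 by limma).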

How the results depend on the processing

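Against vehicle at 72 h, leaving out 1 library at a time gave 421 to 493 genes higher and 220 to 260 lower, a pseudocount of 8 gave 305 higher, and a mean of at least 100 gave 161 higher and 114 lower, fewer genes being tested there. Against AU2-94 the range without 1 library was 3 to 13 higher and 9 to 24 lower, with 4 higher and 2 lower at a mean of at least 100, 14 lower after quantile normalisation, and 5 in each direction with the 2 groups alone. Against atirmociclib the range was 95 to 105 higher and 24 to 42 lower, with 22 lower at a pseudocount of 8, and 50 higher and 8 lower at a mean of at least 100. For 72 h minus 24 h the range was 536 to 609 higher and 64 to 89 lower, with 322 higher and 29 lower at a mean of at least 100, and 143 lower after quantile normalisation, where 24.0% of called genes were lower in place of 12.5%. The log2 fold change of CDK6 was -0.020 after quantile normalisation, and no other named gene changed direction. With the replicate block, which treats libraries of the same number as paired, 481 genes were higher and 253 lower against vehicle. With the block, MT-CO3 (adjusted p = 0.0551) against vehicle and CSRNP3 (0.0523) between the times no longer passed the test, by limma. No other named gene lost it. Causes not given here were not tested. Depth is unknown, and low genes are the least certain.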
